A study of Homo sapiens with 4 samples.

Results

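The 32 genes described here are known targets of the transcription factor ATF4 that make or carry amino acids or are grouped here as stress regulators. They were named by symbol: 7 enzymes of serine synthesis and mitochondrial one-carbon metabolism, 7 other amino acid enzymes, 8 amino acid transporters and 10 stress regulators. Of the 14355 gene names in the deposited tables, 30 were members. SESN2 and PCK2 were not analysed here. A further 2 members, CHAC1 and SLC6A9, had too few reads to be tested, which left 28 members among the 10469 genes tested.

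Ribosome footprints came from Hermes 4B cells, immortalised human melanocytes of the skin, labelled as wild type. Ribosome profiling sequences the short RNA fragments that ribosomes protect from a nuclease, so a gene's reads reflect both how much mRNA it has and how densely ribosomes sit on it. The translation inhibitor cycloheximide is given at 100 µg/mL for every library. All cells grew in serum with stem cell factor at 10 ng/mL, cholera toxin at 200 pM, endothelin-1 at 10 nM and the phorbol ester TPA at 200 nM. They received, at 25 to 50 nM, either a control siRNA or one that targets CDH3-AS1, an RNA transcribed antisense to the P-cadherin gene CDH3. Each siRNA has 2 libraries, replicate 1 in batch 1 and replicate 2 in batch 2 as the labels give them, and all cells are 1 line. Separate cultures are not mentioned in the labels, so the p-values measure the spread between these samples alone, which may be technical. The smallest two-sided p of an exact permutation test over 2 and 2 libraries is 0.333. No RNA-seq was used here, so less mRNA, fewer ribosomes on each mRNA and fewer cells using a gene cannot be told apart.

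ATF4 is the effector of the integrated stress response. Kinases that sense amino acid shortage, endoplasmic reticulum stress, viral RNA or lack of heme phosphorylate the initiation factor eIF2, which lowers translation in general and favours the ATF4 coding sequence over the upstream reading frames of its mRNA. ATF4 pairs with C/EBP family proteins on a composite DNA element and turns on genes that make, import and charge amino acids, together with regulators that feed back on the response. In pigment cells this programme is known to respond to nutrient supply and to lower the melanocyte regulator MITF.

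The composite element was searched as TGATGNAAN on both strands of RefSeq promoters (GRCh38.p14), 300 bases from 250 before to 50 after each start. Of the 25 members with a promoter entry, 8 held a match (32%), against 4.45% of the 27305 gene symbols with an entry. Among the 8523 tested genes with an entry the share was 2.69%, and of the tested members with an entry 7 held a match and 14 did not. The members were listed as known ATF4 targets, so these shares give no independent support for that. The 8 windows are printed to show where the element lies in these genes and which letters its open positions and flanks hold, since the other letters were fixed by the search. Capitals mark the element, and each window is read 5′ to 3′ on the strand that carries it.
MTHFD1L, chr6:150866347-150866375, + strand: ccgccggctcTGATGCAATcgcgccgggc
ASNS, chr7:97872458-97872486, - strand: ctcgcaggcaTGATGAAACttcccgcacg
SLC3A2, chr11:62881725-62881748, - strand: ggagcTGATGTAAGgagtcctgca
SLC1A5, chr19:46784893-46784921, - strand: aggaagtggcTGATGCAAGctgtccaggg
SLC1A4, chr2:64989381-64989409, - strand: cggctggagaTGATGCAAAcgggagccgc
SLC7A1, chr13:29595663-29595691, - strand: ggcgcactgcTGATGAAACctggcgccgg
CHAC1, chr15:40953251-40953279, - strand: ctggcaggagTGATGCAACggcaggggag
CEBPG, chr19:33374061-33374089, + strand: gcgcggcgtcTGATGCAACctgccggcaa
The ASNS match begins 68 bases before the start and has the letters known as the nutrient-sensing response element of that promoter. Read along the gene, other matches began 8 bases (SLC1A4), 42 bases (CEBPG), 97 bases (SLC1A5) and 210 bases (CHAC1) before the start. The 9 letters in SLC1A4 thus reach the start itself. SLC7A1 and SLC3A2 had theirs 7 and 36 bases after it. MTHFD1L has 3 entries, and the same element lay 129 or 90 bases before a start or 24 bases after it. ASNS and SLC7A1 shared the 9 letters TGATGAAAC, and CHAC1 and CEBPG shared TGATGCAAC. A match is a description of the letters and shows no binding. PSPH, SHMT2, ALDH1L2, PYCR1, GPT2, SLC7A11 and NUPR1 had no entry.

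Library totals ran from 2034854 to 6759850 reads, and the control was the shallower of the pair in batch 1 but the deeper one in batch 2. A level in CPM is the gene's share of the library's TMM-scaled coding-sequence reads, and 3 reads, the level taken as the limit of detection, were worth 1.60 and 0.530 CPM in control replicates 1 and 2 and 0.475 and 1.18 CPM in CDH3-AS1 siRNA replicates 1 and 2. All 10 melanocyte markers had reads in every library, summing to between 21776 and 40132 CPM. Control replicate 1 stood apart: 13 skeletal muscle markers summed to 4105 CPM there and to at most 13.5 CPM elsewhere, and fibroblast markers to 484 CPM against at most 4.91 CPM. Keratinocyte markers summed to between 19.0 and 72.3 CPM. The part of this foreign RNA in the results was not tested. Batch 2 values are given beside the results for most members, but values without that library for only some of the results. CDH3 was at 62.6% of its batch 1 control and 61.9% of its batch 2 control, and CDH3-AS1 itself was not analysed here.

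Footprint levels differed far more between members than between libraries. They are compared between genes per kilobase of the longest listed coding sequence. SLC7A5, the light chain of the large neutral amino acid transporter LAT1, stood highest at 1377 and 1074 CPM per kilobase in control replicates 1 and 2. SLC3A2, the heavy chain that carries both LAT1 and the cystine exchanger to the membrane, followed at 1317 and 885. Next came the neutral amino acid transporter SLC1A4 at 552 and 316 and the stress-induced chromatin protein NUPR1 at 449 and 278.

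In control means SHMT2 and PHGDH stood above several transporters, and CBS stood lowest of the tested members. SHMT2 and PHGDH led the enzymes with control means of 153 ± 76.3 and 124 ± 56.6 CPM per kilobase (SD, n = 2). At the foot of the order were GPT2 (6.71 ± 2.50), CTH (6.19 ± 0.537) and CBS (1.61 ± 1.37, all SD, n = 2). Of the 27 pairs of neighbours in the order of control means, 20 had overlapping control ranges, so most neighbours could not be ordered. SLC7A5 and SLC3A2 overlapped each other and lay clear of SLC1A4, and CBS lay clear of CTH. CHAC1, a glutathione-degrading enzyme, had 4 coding-sequence reads in control replicate 1 and 0 in the other 3 libraries. The glycine transporter SLC6A9 had 2 reads in control replicate 2 and 0 elsewhere.

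**Figure D1:**
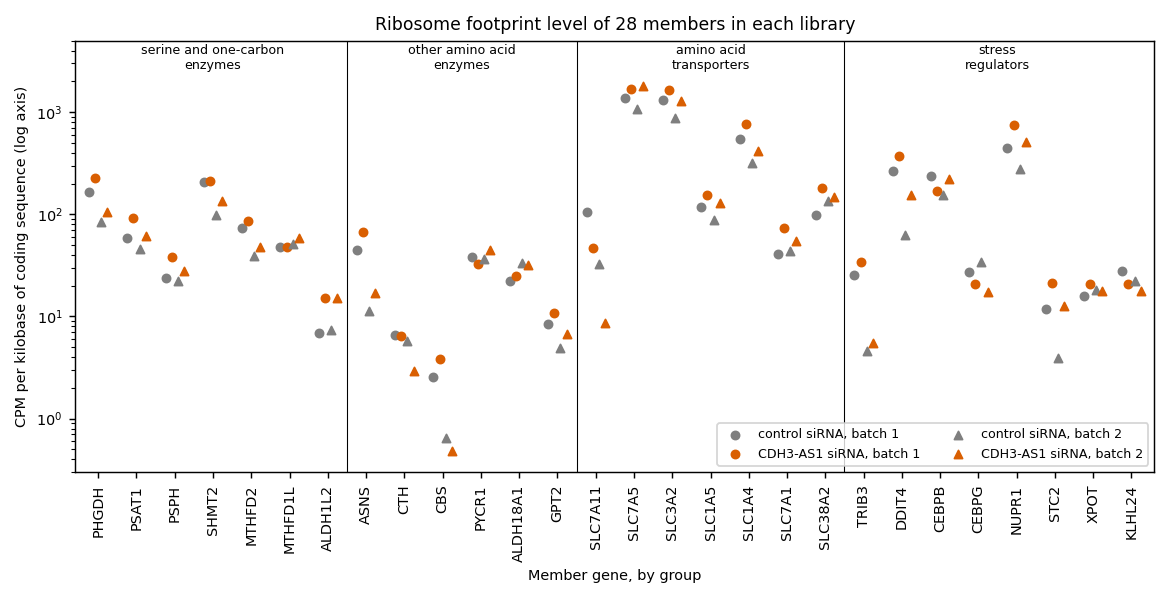
Coding-sequence footprint level of the 28 tested members in CPM per kilobase (log axis), by group. Each point is 1 library, grey for control and orange for CDH3-AS1 siRNA, circles for batch 1 and triangles for batch 2; SLC7A5 and SLC3A2 stand highest and CBS lowest, and each orange point of SLC7A11 lies under the grey point of the same batch.

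The first comparison asked whether CDH3-AS1 siRNA shifted these genes. SLC7A11 fell once the batch was taken into account, and no other member passed the test in either model. Most of the others were somewhat higher with CDH3-AS1 siRNA in both batches, by amounts that did not pass. Without the batch in the model, edgeR's quasi-likelihood test with Benjamini-Hochberg adjustment called 0 members and 0.00% of all genes at an adjusted p under 0.05. At an unadjusted p under 0.05 it gave 1 member, ALDH1L2, and 225 of the 10469 genes tested, and DESeq2 called 0 members and 2 genes. The labels tie replicate numbers to batches, and with the number as a replicate block edgeR called 1 member, SLC7A11, against 1.62% of all genes. In that model 9 of the 28 tested members had an unadjusted p under 0.05, 8 of them higher. So did 1025 of the 10469 genes tested, counted in either direction.

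Within both batches 19 members were higher with CDH3-AS1 siRNA, against 26.5% of all genes. These were 7 of the 7 serine and one-carbon enzymes, 2 other enzymes, 6 transporters and 4 regulators. The counts by direction have no minimum size. In batch 1 MTHFD1L counted as higher at a log2 difference of 0.0034 and SHMT2 at 0.04, and CTH counted as lower at -0.01. Another 4 members were lower in both batches (SLC7A11, CTH, CEBPG and KLHL24), against 27.8% of all genes, and 5 went opposite ways. Both CDH3-AS1 siRNA libraries lay above both controls for 9 members, against 13.3% of all genes, and below both for 2, against 14.1%. The 9 were PSAT1, PSPH, ALDH1L2, SLC7A5, SLC1A5, SLC7A1, SLC38A2, NUPR1 and STC2, and the 2 were CEBPG and KLHL24. Without control replicate 1, 19 members lay above the remaining control in both CDH3-AS1 siRNA libraries, against 34.0% of all genes. That control is of batch 2, where the members were lower, with a median batch difference of -0.47 against 0.01 for all genes. The siRNA and the batch therefore cannot be told apart in this count.

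The median log2 difference of the 28 members was 0.44, against -0.03 for all genes tested, and 0.39 with the replicate block. It was 0.38 within batch 1 and 0.33 within batch 2, against 0.01 and -0.03 for all genes. By group, the median was 0.43 in the serine and one-carbon enzymes, 0.22 in the other enzymes, 0.46 in the transporters and 0.33 in the regulators. The group medians differed by less than the spread within a group, whose members ran from -1.25 to 0.59 in the transporters and from -0.65 to 1.15 in the regulators. Leaving out 1 library moved the median of all members to between 0.09 (without control replicate 2) and 0.75 (without control replicate 1). Dropping CDH3-AS1 siRNA replicate 1 gave 0.11 and dropping replicate 2 gave 0.61. Each such step leaves the batches unbalanced between the siRNAs, and the members also differed by batch, as given further on.

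Among the 7 tested members with the promoter element, 6 were higher in both batches and CEBPG was lower in both. Of the 14 tested members with an entry and no match, 8 were higher in both. These counts are too small to set one class apart from the other, and no test was made.

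**Figure D2:**
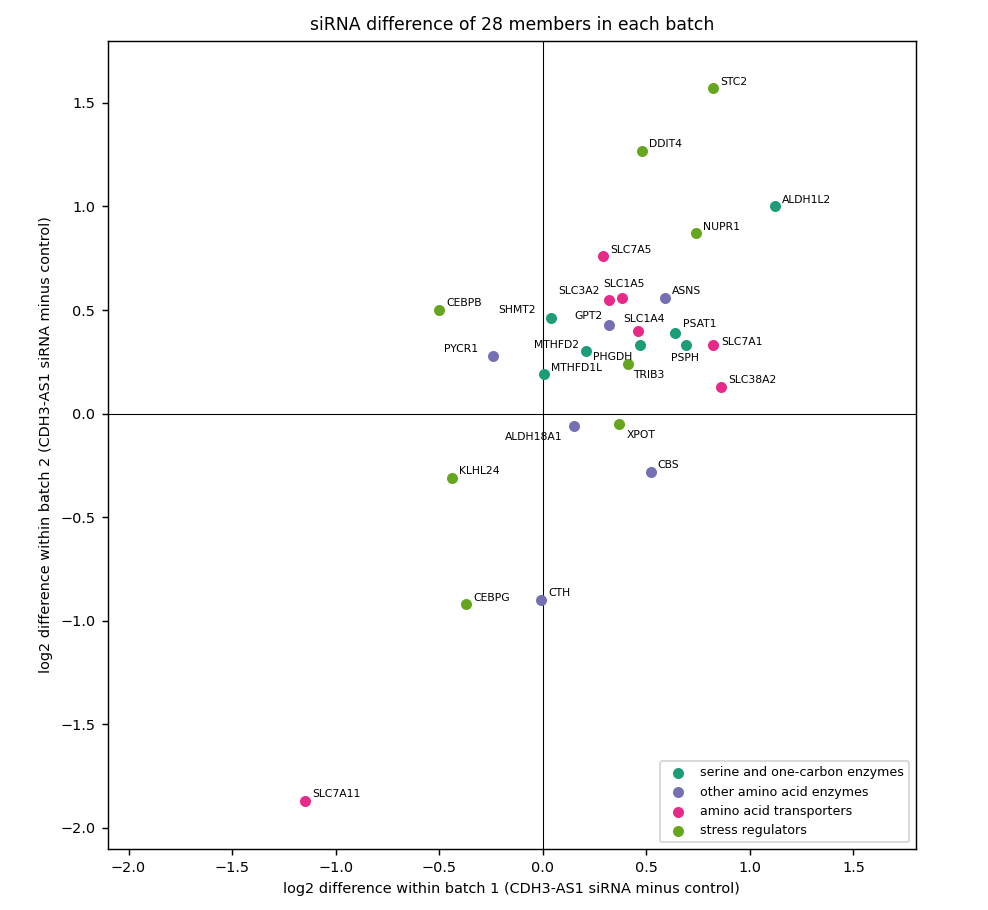
Log2 difference between CDH3-AS1 and control siRNA within batch 1 (horizontal axis) and within batch 2 (vertical axis) for each of the 28 tested members, coloured by group. The upper right holds the 19 members that were higher in both batches, SLC7A11 lies at -1.15 and -1.87 among the 4 that were lower in both, and CEBPB, PYCR1, CBS, ALDH18A1 and XPOT lie where the signs are opposite.

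Of the serine and one-carbon enzymes, ALDH1L2 had the largest difference and MTHFD1L was level in batch 1. ALDH1L2 oxidises formyl-tetrahydrofolate in mitochondria. In batch 1 it had 19.2 CPM with control and 42.3 CPM with CDH3-AS1 siRNA, and in batch 2 the levels were 20.7 and 41.9 CPM. Both CDH3-AS1 siRNA libraries were about level with each other and lay above both controls, which were also level. The level was 220% of the batch 1 control and 202% of the batch 2 control, and the log2 difference was 1.06 ± 0.34 (SE). edgeR's quasi-likelihood test gave an unadjusted p of 0.0182 and an adjusted p of 1.00, and 0.0873 with the replicate block, so it missed the threshold in both models. The control of batch 1 held 36 reads of this gene and the other libraries between 106 and 267. Left-out libraries moved the difference between 1.04 and 1.12 only.

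The pathway from glycolysis to serine runs through PHGDH, PSAT1 and PSPH. PHGDH, its first enzyme, had 263 CPM with control in batch 1 and 365 CPM with CDH3-AS1 siRNA, and in batch 2 it had 135 and 169 CPM; the other pairs of values are in the same order. Here the batches were farther apart than the siRNAs, and the groups overlapped. PSAT1, the aminotransferase of the second step, had 65.6 and 102 CPM in batch 1 and 51.5 and 67.5 CPM in batch 2. Its groups did not overlap, though the nearest libraries, at 65.6 and 67.5 CPM, were almost level. PSPH, the final phosphatase, had 16.0 and 26.1 CPM in batch 1 and 15.0 and 19.0 CPM in batch 2, also without overlap. PSPH has a near-identical pseudogene copy, so its reads may have been split and its values are uncertain. The log2 differences of the 3 enzymes were 0.43 ± 0.50, 0.54 ± 0.36 and 0.54 ± 0.40 (SE), and none passed with or without the block.

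SHMT2, MTHFD2 and MTHFD1L are mitochondrial folate enzymes that take the carbon of serine onward. SHMT2, which splits serine into glycine and a one-carbon unit, had 314 and 322 CPM in batch 1 and 150 and 207 CPM in batch 2. MTHFD2, which oxidises the unit, had 72.0 and 83.3 CPM in batch 1, then 38.2 and 47.0 CPM in batch 2. The groups overlapped for both genes, with both batch 1 libraries high. MTHFD1L, which releases formate, stood at 140 and 140 CPM in batch 1 and at 151 and 173 CPM in batch 2. The log2 differences were 0.19 ± 0.46, 0.26 ± 0.45 and 0.10 ± 0.31 (SE). The annotation places SLC4A5, also among the deposited gene names, over MTHFD2, and how shared reads were assigned is not given.

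The other amino acid enzymes did not share a direction. ASNS, asparagine synthetase, had 75.7 and 114 CPM in batch 1 and 19.1 and 28.4 CPM in batch 2. It was 150% and 149% of the control in the batches, and the groups overlapped because both batch 2 libraries lay under both batch 1 libraries. Its log2 difference was 0.62 ± 0.80 (SE) without and 0.58 ± 0.30 with the replicate block, where edgeR's adjusted p was 0.521. Another annotated gene, CZ1P-ASNS, overlaps ASNS. GPT2, mitochondrial alanine transaminase, was the other enzyme higher in both batches, at 13.3 and 16.8 CPM and at 7.78 and 10.7 CPM.

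CTH and CBS, which turn homocysteine into cysteine, had few reads. CTH had 8.0 and 7.92 CPM in batch 1 and 7.07 and 3.55 CPM in batch 2, and only the last library stood apart. CBS had 4.27 and 6.34 CPM in batch 1 and 1.06 and 0.790 CPM in batch 2, and its last library was below the level of 3 reads. The proline enzymes PYCR1 (33.9 to 46.2 CPM over the libraries) and ALDH18A1 (53.3 to 78.9 CPM) had log2 differences of 0.03 ± 0.35 and 0.02 ± 0.36 (SE) and went opposite ways in the batches. None of these 6 enzymes passed in either model.

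Among the transporters SLC7A11 went against the rest. SLC7A11 (chr4:138164097-138242349) is the light chain of the exchanger that imports cystine against glutamate. In batch 1 it had 158 CPM with control and 71.3 CPM with CDH3-AS1 siRNA, and in batch 2 the levels were 49.0 and 13.0 CPM. The CDH3-AS1 siRNA library was the lower in each batch, but the groups overlapped, since the control of batch 2 lay under the CDH3-AS1 siRNA library of batch 1. The level was 45.0% of the batch 1 control and 26.6% of the batch 2 control, with group means of 104 ± 77.3 and 42.2 ± 41.2 CPM (SD, n = 2). With the replicate block SLC7A11 fell by 1.45 ± 0.30 (SE) on the log2 scale at an adjusted p of 0.000252 in edgeR's quasi-likelihood test, and DESeq2 with the block gave 0.0146. Without the block the difference was -1.25 ± 0.83 (SE) at an adjusted p of 1.00 in edgeR.

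Single libraries weighed on the unblocked value of SLC7A11. It was -0.14 without control replicate 1, -0.52 without CDH3-AS1 siRNA replicate 2, -1.84 without control replicate 2 and -2.93 without CDH3-AS1 siRNA replicate 1. Within batch 2, which does not hold the library with muscle RNA, it was -1.87. That value rests on 33 coding-sequence reads in CDH3-AS1 siRNA replicate 2 and 277 in control replicate 2. The annotation places SLC7A11-AS1 over the gene, and strand use in the counting is not given in the sources used here, so reads of the antisense gene cannot be told from its own.

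The other 6 tested transporters were higher in both batches. SLC7A5 had 2099 and 2561 CPM in batch 1 and 1637 and 2775 CPM in batch 2. Both CDH3-AS1 siRNA libraries were high and the groups did not overlap. Its log2 difference was 0.51 ± 0.33 (SE), and with the replicate block 0.52 ± 0.20 at an adjusted p of 0.222 in edgeR. SLC7A5 has near-identical pseudogene copies and an annotated antisense gene, SLC7A5-AS1, so its values are uncertain to that extent.

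SLC3A2, the partner of both light chains, had 2498 and 3109 CPM in batch 1 and 1677 and 2454 CPM in batch 2. Its groups overlapped by a narrow margin, and the log2 difference was 0.41 ± 0.36 (SE). The exchanger's heavy chain was therefore higher in both batches while SLC7A11 was lower in both. SLC1A5 and SLC1A4 are sodium-coupled carriers of neutral amino acids. SLC1A5 had 191 and 249 CPM in batch 1 and 143 and 212 CPM in batch 2, and SLC1A4 had 882 and 1212 CPM and then 506 and 668 CPM. SLC1A5 did not overlap between the groups, and SLC1A4 did, with its batch 2 libraries low.

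SLC7A1 carries cationic amino acids such as arginine. It had 77.8 and 138 CPM in batch 1, then 82.0 and 103 CPM in batch 2. The neutral carrier SLC38A2 had 150 and 274 CPM in batch 1 and 205 and 224 CPM in batch 2. Both were without overlap, and in both the larger part of the difference lay in batch 1, the batch of the control with muscle RNA. Within batch 1 the log2 differences were 0.82 for SLC7A1 and 0.86 for SLC38A2, and within batch 2 they were 0.33 and 0.13. Their adjusted p with the replicate block was 0.434 and 0.506 in edgeR.

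**Figure D3:**
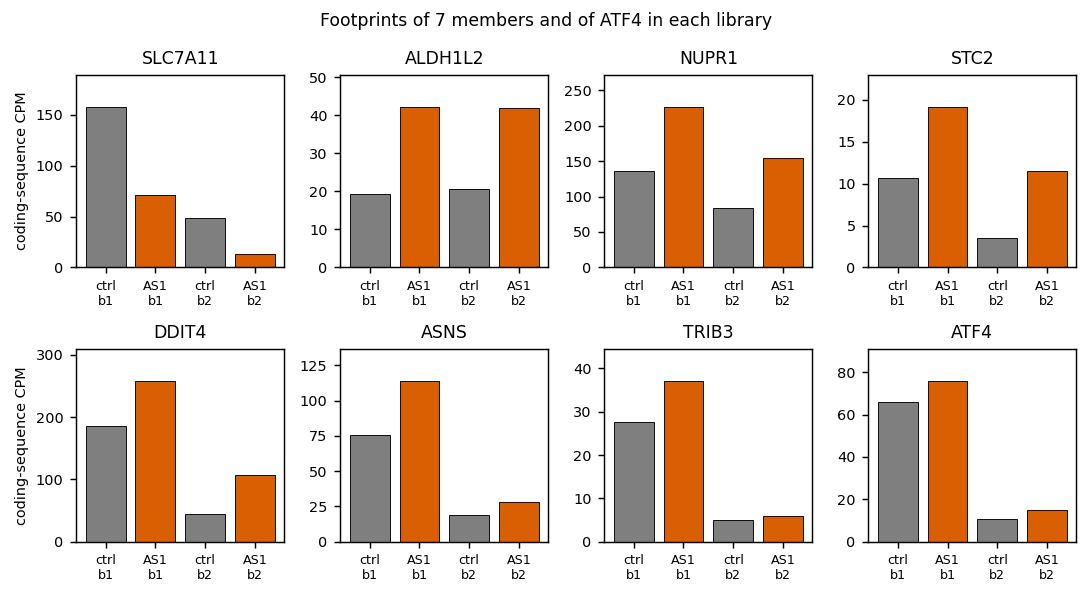
Coding-sequence footprint level in CPM of SLC7A11, ALDH1L2, NUPR1, STC2, DDIT4, ASNS and TRIB3 and of ATF4 in each of the 4 libraries (ctrl, control siRNA; AS1, CDH3-AS1 siRNA; b1 and b2, batches 1 and 2). Each bar is 1 library. SLC7A11 is the lower with CDH3-AS1 siRNA in each batch, ALDH1L2 follows the siRNA and not the batch, and ASNS, TRIB3 and ATF4 are low in both batch 2 libraries.

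The stress regulators differed among themselves in direction, and STC2, NUPR1 and DDIT4 had the largest positive differences of the group. STC2, a secreted glycoprotein hormone, had 10.7 and 19.2 CPM in batch 1 and 3.54 and 11.5 CPM in batch 2. Both CDH3-AS1 siRNA libraries lay above both controls, by a narrow margin. Its log2 difference of 1.15 ± 0.62 (SE) rested on few coding-sequence reads, 20 in each control and 29 in CDH3-AS1 siRNA replicate 2, and edgeR's adjusted p with the block was 0.243.

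NUPR1 had 136 and 227 CPM in batch 1 and 84.3 and 155 CPM in batch 2. It was 167% and 184% of the control, without overlap between the groups. The log2 difference was 0.80 ± 0.39 (SE), and edgeR's adjusted p with the replicate block was 0.0870. DDIT4, an inhibitor of mTORC1, had 186 and 258 CPM in batch 1 and 44.0 and 107 CPM in batch 2. Both batch 2 libraries were low, so the groups overlapped. With the block its log2 difference was 0.86 ± 0.26 (SE) at an adjusted p of 0.0586 in edgeR, the nearest to the threshold among the members that did not pass.

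TRIB3, a pseudokinase that restrains ATF4, had 27.7 and 37.1 CPM in batch 1 and 4.95 and 5.92 CPM in batch 2. Its siRNA difference within each batch was small beside the gap between the batches. The C/EBP proteins are the partners of ATF4 on the composite element. CEBPG had 12.3 and 9.35 CPM in batch 1 and 15.4 and 7.90 CPM in batch 2, with both controls above both CDH3-AS1 siRNA libraries. CEBPB had 247 and 175 CPM in batch 1 and 162 and 229 CPM in batch 2, opposite ways, and its log2 difference was -0.02 ± 0.36 (SE).

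KLHL24, a substrate adaptor of a ubiquitin ligase, had 50.7 and 37.2 CPM in batch 1 and 39.8 and 32 CPM in batch 2. Both controls lay above both CDH3-AS1 siRNA libraries, by 39.8 against 37.2 CPM at the nearest. XPOT, the exporter of tRNA from the nucleus, had 45.9 and 59.6 CPM in batch 1, then 52.7 and 51.0 CPM in batch 2. The log2 differences of CEBPG, KLHL24 and XPOT were -0.65 ± 0.44, -0.37 ± 0.35 and 0.16 ± 0.33 (SE), and none passed in either model. An annotated antisense gene, CEBPB-AS1, overlaps CEBPB.

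The second comparison set batch 2 against batch 1 with the siRNA as a covariate. Asparagine synthetase, the cystine exchanger subunit SLC7A11, TRIB3 and DDIT4 were lower in batch 2 with both siRNAs. edgeR's quasi-likelihood test called 9 members lower in batch 2, against 6.30% of all genes, and 0 members higher, against 9.52%. The 9 were PHGDH, SHMT2, MTHFD2, ASNS, CBS, SLC7A11, SLC1A4, TRIB3 and DDIT4. DESeq2 called 7 of these, without MTHFD2 (adjusted p = 0.118) and CBS, to which it gave no adjusted p. Both batch 2 libraries lay below both batch 1 libraries for 12 members, against 25.7% of all genes, and above them for 2, MTHFD1L and ALDH18A1, against 28.7%.

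TRIB3 differed most, at -2.46 ± 0.41 (log2, SE) with an adjusted p of 1.33e-07 in edgeR. Batch 1 was 5.60 times batch 2 with the control and 6.26 times with CDH3-AS1 siRNA. SLC7A11 differed by -2.00 ± 0.30 (adjusted p = 2.88e-09 in edgeR), CBS by -1.98 ± 0.70 (0.0349), ASNS by -1.97 ± 0.30 (8.54e-09) and DDIT4 by -1.66 ± 0.27 (3.50e-08). The enzymes of serine metabolism differed less, PHGDH by -1.04 ± 0.25, MTHFD2 by -0.86 ± 0.29 and SHMT2 by -0.85 ± 0.25, and the transporter SLC1A4 by -0.83 ± 0.22. SLC7A5, SLC7A1, SLC38A2, ALDH1L2, CEBPB, CEBPG and XPOT had batch differences between -0.17 and 0.07, none of which passed. The median over the members was -0.47, against 0.01 for all genes.

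The batch differences were also present without the control with muscle RNA. Within the CDH3-AS1 siRNA libraries alone, which leave out both controls, TRIB3 differed by -2.55, SLC7A11 by -2.41, ASNS by -1.98, DDIT4 by -1.27 and PHGDH by -1.11. Within the controls the same genes differed by -2.38, -1.68, -1.96, -2.06 and -0.96. A total of 18 members were lower in batch 2 with both siRNAs, against 34.1% of all genes, and 23 within the CDH3-AS1 siRNA libraries, against 49.1%. What differed between the batches is not given in the labels, and each batch holds 1 library of each siRNA.

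**Figure D4:**
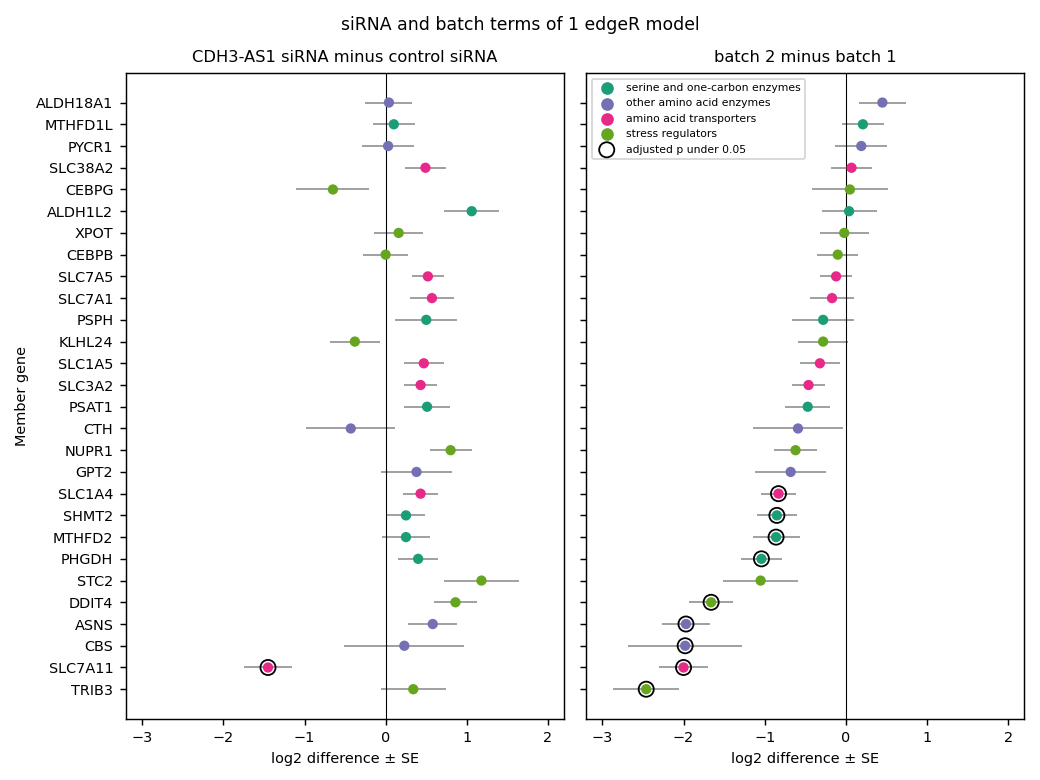
Log2 difference ± SE of each tested member for CDH3-AS1 against control siRNA (left) and for batch 2 against batch 1 (right), both from 1 edgeR model, ordered by the batch difference and coloured by group. Black rings mark an adjusted p under 0.05: SLC7A11 on the left, and the 9 members called lower in batch 2 on the right.

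Genes around the members in the pathway were taken from lists of 58 genes, of which 48 were tested. None of them was called for CDH3-AS1 siRNA by edgeR with or without the replicate block, and their median log2 difference was 0.01. By list the medians ran from -0.24 in further folate and serine enzymes to 0.30 in stress transcription factors and phosphatase subunits. Of the 7 genes in the latter list, 6 were higher in both batches, against 26.5% of all genes. By batch, 4 were called higher in batch 2, against 9.52% of all genes, and 7 lower, against 6.30%. ATF4 itself had 66.1 and 75.9 CPM in batch 1 and 10.8 and 15.0 CPM in batch 2. Both batch 2 libraries were low, as for ASNS and TRIB3, and its batch difference was -2.43 ± 0.33 (adjusted p = 4.79e-11 in edgeR). The siRNA difference of ATF4 was 0.30 ± 0.95 (SE) without the replicate block and 0.31 ± 0.32 with it. Within batches 1 and 2 it was 0.20 and 0.46.

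Besides ATF4, 3 of the other 6 stress transcription factors and phosphatase subunits were called lower in batch 2. DDIT3 differed by -1.45 ± 0.34, ATF5 by -1.08 ± 0.36 and the phosphatase subunit PPP1R15A by -1.15 ± 0.25 (log2, SE), all with an adjusted p under the threshold in edgeR. JDP2 (-0.22 ± 0.55) and the other subunit PPP1R15B (-0.50 ± 0.29) did not pass. ATF3, a stress-induced repressor, had a batch difference of -0.01 ± 0.37, with 16.5 and 38.8 CPM in batch 1 and 18.9 and 34.4 CPM in batch 2. Its groups did not overlap by siRNA, with a log2 difference of 1.02 ± 0.36 (SE) that missed the threshold with the replicate block (adjusted p = 0.136 in edgeR).

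The remaining batch calls in these lists were of charging enzymes, kinases and further targets. The tRNA synthetases WARS1 and AARS1 fell in batch 2, with differences of -1.56 ± 0.20 and -1.27 ± 0.24 (log2, SE), as did the stress hormone GDF15, with -1.45 ± 0.54. EPRS1, another synthetase, was higher by 1.06 ± 0.26. The eIF2 kinases EIF2AK2 and EIF2AK3 were higher by 1.10 ± 0.25 and 1.17 ± 0.35, and so was the lipoprotein receptor VLDLR, by 1.10 ± 0.26. The eIF2 kinases EIF2AK1 (0.51 ± 0.29) and EIF2AK4 (-0.55 ± 0.26) went opposite ways by batch, and neither passed. The 17 tested synthetases had a median siRNA difference of 0.02, against 0.44 for the members.

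The third comparison used reads outside the coding sequence. Upstream reading frames hold back the coding sequence of several stress genes, and the share of a gene's reads in its 5′ UTR gives one view of them. The share was taken over 5′ UTR and coding-sequence reads for the 25 members with at least 20 such reads in every library. It was higher with CDH3-AS1 siRNA in both batches for 10 members, against 18.0% of the 8400 genes with as many reads, and lower in both for 4 (SHMT2, SLC1A5, SLC7A1 and NUPR1), against 12.9%. Of the 8400 genes 14.6% had no 5′ UTR read in any library and so could not count as higher, while 0 of the 25 members did. For 4 of the 10, PSAT1, ALDH18A1, GPT2 and STC2, the batch 1 control had 0 5′ UTR reads, which allows shares of up to 2.44%, 3%, 12% and 15%, so that their order in batch 1 rests on a count of 0. Over all genes of a library the 5′ UTR took 5.98% and 3.81% of the reads in batch 1 (control, then CDH3-AS1 siRNA) and 5.08% and 7.09% in batch 2. The library shares thus moved opposite ways in the batches, and their part in single genes was not tested.

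CEBPB had a higher 5′ UTR share with CDH3-AS1 siRNA in both batches. Its mRNA is known to carry a small upstream reading frame that sets which protein form is made. The share was 8.86% (95% interval 6.53 to 11.7) with control and 13.8% (12.0 to 15.9) with CDH3-AS1 siRNA in batch 1, where the share over all genes was the lower with CDH3-AS1 siRNA. In batch 2 it was 3.06% (2.06 to 4.37) and 8.81% (6.72 to 11.3). The Clopper-Pearson intervals, which cover counting error only, lay apart in both batches, with the CDH3-AS1 siRNA share above. Only 11 of the 8400 genes (0.131%) showed this, and CEBPB was the only member. The control of batch 1 and the CDH3-AS1 siRNA library of batch 2 were level, so the groups overlapped.

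ASNS also had a higher share in both batches, and more so by batch. Its share was 4.05% (1.5 to 8.61) and 7.23% (5.50 to 9.28) in batch 1 and 12.9% (7.56 to 20.1) and 23.4% (15.3 to 33.3) in batch 2. The intervals overlapped within each batch, and both batch 2 shares lay above both batch 1 shares. SLC7A11 ran the same way, from 2.30% and 4.05% in batch 1 to 5.46% and 13.2% in batch 2, the last over 38 reads with an interval of 4.41 to 28.1. Shares of SLC7A5 were small but also higher in batch 2, at 0.0508% and 0.124% in batch 1 and 0.836% and 1.46% in batch 2. Both of its batch 2 intervals (0.661 to 1.04 and 1.19 to 1.76) lay above both batch 1 intervals (0.00615 to 0.183 and 0.0755 to 0.191). The share of all genes that rose by batch in this way is not given here.

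The transporters differed widely in this share. SLC38A2 had 25.2% and 14.4% in batch 1 and 12.2% and 19.0% in batch 2, with intervals apart within each batch but in opposite directions. SLC1A5 had 11.1% and 7.30% and then 14.0% and 13.1%. SLC7A1, whose mRNA is known for a regulated internal ribosome entry in its leader, had 15.1% and 4.30% in batch 1 and 6.26% and 3.68% in batch 2. It was lower with CDH3-AS1 siRNA in both batches, and in batch 2 the intervals, 4.29 to 8.77 and 1.78 to 6.66, overlapped. PSPH had between 15.4% and 34.2% of its reads in the 5′ UTR, on at most 195 reads. A read can lie in the 5′ UTR of one transcript and the coding sequence of another, and how such reads were assigned is not given in the sources used here.

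**Figure D5:**
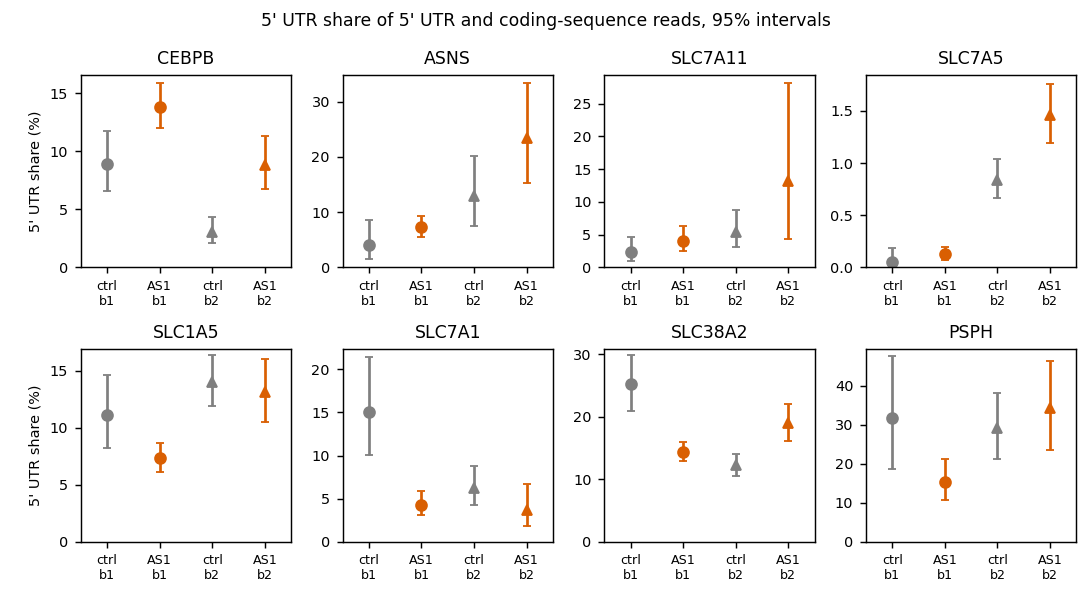
Share of 5′ UTR and coding-sequence reads that fell in the 5′ UTR (percent) for 8 members in each library (ctrl, control siRNA; AS1, CDH3-AS1 siRNA; b1 and b2, batches 1 and 2), with 95% Clopper-Pearson intervals that cover counting error only. Axes differ between genes; the CEBPB intervals lie apart in both batches, those of ASNS overlap within each batch, and SLC38A2 goes opposite ways.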

How the data were processed

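Per the file headers, the authors deposited for each library and transcript the counts of reads in the 5′ UTR, the coding sequence and the 3′ UTR, the lengths of these regions, and RPKM values of each region. The submitters' processing notes name hg38 and DESeq2. For aligner, counter, annotation release and strand, the sources used here give no entry.

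Coding-sequence counts were summed by gene name, filtered with edgeR's filterByExpr (minimum count 10, minimum total 15) and tested with edgeR 4.0.16 in R 4.3.3 (TMM, quasi-likelihood test, prior count 2, Benjamini-Hochberg over all genes, threshold 0.05). SE is the absolute log2 difference over the square root of F. The replicate number is the batch in the labels, and across genes the deviations from the group mean correlated between libraries of the same number (r = 0.584), so blocked values are given where they change a call. Residual degrees of freedom per gene were 1 with the block and 2 in its absence. Replicates differed beyond sampling noise (chi-square per degree of freedom 40.8 and 36.3). DESeq2 1.42.0, and limma 3.58.1 on log2(RPKM + 1), were among the alternatives. The script was tested on simulated data. The deposited RPKM values served only in that limma alternative.

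Members and lists were chosen with earlier results of these data known. Every member was named, and coordinates and promoters are RefSeq's (GRCh38.p14), the assembly of hg38. Promoter entries matched 25 of the 32 members by symbol. Overlaps with other genes come from the same annotation.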

Additional observations from a re-analysis of the deposited data

Results flagged for a closer look

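In 5 members the difference between CDH3-AS1 and control siRNA went one way in batch 1 and the other way in batch 2. The difference between the batches was not tested, since each batch holds 1 library of each siRNA. The value given is the log2 difference within batch 2 minus that within batch 1. CEBPB had the widest such gap, 0.99, with -0.50 in batch 1 and 0.50 in batch 2. For CBS the gap was -0.80, on 2 reads in the CDH3-AS1 siRNA library of batch 2. PYCR1 had a gap of 0.51, from -0.24 to 0.28. XPOT had a gap of -0.42, from 0.37 to -0.05, and ALDH18A1 one of -0.21, from 0.15 to -0.06.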

How the results depend on the processing

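Members called lower after CDH3-AS1 siRNA numbered 0 without the batch in the model, 1 with the replicate block and 1 with DESeq2 and the replicate block, SLC7A11 each time, and the block changed no other member's call. The other settings, all without the block, called 0 members, as the unblocked model did, and so say nothing on the blocked SLC7A11 call. The filter of 50 reads leaves SLC7A11 out. Members called lower in batch 2 numbered 4 without the siRNA as a covariate, against 9. With at least 50 reads in each library the median was 0.16 in the stress regulators, 0.27 in the serine and one-carbon enzymes and 0.03 in the other enzymes. Leaving out each library in turn, medians ranged from 0.17 to 0.81 in the serine and one-carbon enzymes, from -0.34 to 0.47 in the other amino acid enzymes, from 0.28 to 0.72 in the transporters and from -0.14 to 0.78 in the regulators. The count of members above both controls became 19 without control replicate 1, an alternative added after seeing the data. There only 1 control remains to exceed, and it is of batch 2, where the members were lower. The cause of the other shifts was not tested.

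Of 243 member values under other settings 5 changed sign, all near 0: PYCR1 with its top transcript (-0.04) and with limma on RPKM (-0.01), CEBPB with DESeq2 and the block (0.01) and with the reads of all regions (0.07), and XPOT with all regions (-0.0037). Of 112 values without 1 library, 21 changed sign, in 13 members. These fits had no batch term, and each leaves the batches unbalanced between the siRNAs. Over these fits PHGDH ranged from -0.23 to 1.02, SHMT2 from -0.23 to 0.85, MTHFD2 from -0.22 to 0.81, MTHFD1L from -0.05 to 0.25, ASNS from -0.70 to 1.93, CTH from -0.96 to 0.07 and CBS from -1.16 to 1.58. PYCR1 ranged from -0.20 to 0.24, ALDH18A1 from -0.20 to 0.34, SLC1A4 from -0.05 to 0.93, TRIB3 from -1.34 to 2.12, DDIT4 from -0.09 to 2.08 and CEBPB from -0.28 to 0.34. For 14 of the 28 members no setting changed the sign. With 2 libraries per siRNA and under 50 reads of some members in the shallowest library, small differences were not detectable.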
